A study of Cynoglossus semilaevis with 24 samples.

Results

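Female and male pituitaries of the Chinese tongue sole (Cynoglossus semilaevis), a flatfish with ZW females and ZZ males, were compared by RNA sequencing in 6 of the 24 libraries of a study of sexual growth dimorphism; the other libraries came from brain, liver and gonad. The libraries were chosen by their labels as pituitary, with 3 libraries from genetic females and 3 from genetic males. All fish were 2 years old and no treatment was labelled. Each library was made from the glands of 5 fish mixed before RNA extraction, so the 3 pools of a sex give the spread between pools and not between single fish. A gene was tested when it reached 1 FPKM (fragments per kilobase of transcript, scaled to the fragments of the library) in at least 3 of the 6 libraries, which kept 15313 of 22773 genes. A gene below 1 FPKM in every pool of a sex could pass only through the other sex. The direction and the separation of its pools were then set by the filter. Genes of this kind named below include adamts9, LOC103393533, avp, gnrhr1 and nefh. A gene was called when its Benjamini-Hochberg adjusted p, over all 15313 genes, was under 0.05 in edgeR's quasi-likelihood test of the counts. Of the tested genes 26.7% were called, 12.4% higher in females and 14.3% higher in males, and these shares are the background for the counts below. In 44.2% of tested genes the female and male pools did not overlap. Differences are female minus male on the log2 scale, and the median over all tested genes was 0.012.

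The pituitary lies under the brain and releases hormones that set growth, reproduction, thyroid and adrenal-type steroid output, pigmentation and salt balance. The hormones are made by distinct cell types, some of which share a precursor or a subunit. These cell types are specified by transcription factors and are driven or restrained by hypothalamic peptides and amines acting on receptors of the pituitary cell. Steroids and thyroid hormone feed back on nuclear receptors. In teleosts nerve fibres from the hypothalamus enter the gland directly. Whole glands were sequenced, so a lower level of a transcript may come from fewer cells of a type or from less RNA per cell, and these cannot be told apart here. The hormones themselves identified the tissue: the lowest single value among the 9 tested hormone genes, of 11 listed, was 1028 FPKM, while a proopiomelanocortin-type entry (LOC103380354) and prl2 were listed at 0 in all 6.

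Estimated counts summed to between 10735705 and 12714590 per pituitary library, and between 14754 and 15384 genes reached 1 FPKM. Spearman's rho across genes was at least 0.974 between pools of the same sex and at most 0.947 between pools of opposite sex. Both libraries numbered 3 stood apart in transcripts of other tissues, as detailed below, and calls that ended without these libraries are named with the gene.

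Hormone genes differed in both directions. Of 9 tested hormone genes, 1 was higher in females and 4 were higher in males, against 12.4 and 14.3% of all genes, and 4 did not pass the test. The median log2 difference was -0.30. The beta subunit of follicle-stimulating hormone, fshb, was not found by name and is not in the list. Growth hormone, gh1, was the gene with the highest mean level in the gland, at 64305, 90321 and 98172 FPKM in the female pools and 21536, 26339.8 and 14990.5 in the male pools. It took 10.6, 15.5 and 16.7% of the summed FPKM of the female pools and 3.87, 4.56 and 2.57% of that of the male pools, so the groups did not overlap (3.93-fold, log2 difference 1.98, SE 0.24, edgeR adjusted p = 0.000902).

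The 3 tested proopiomelanocortin-like genes, whose product is cut into corticotropin and melanocyte-stimulating hormone, did not move alike. The most abundant copy, LOC103393769, was at 21669, 19673 and 18769.5 FPKM in the female pools and 27898, 46823 and 49071 in the male pools (log2 difference -1.06, SE 0.19, edgeR adjusted p = 0.00352). A second copy, LOC103380837, was at 1424, 1455 and 1339 against 2655, 4154 and 3383 FPKM, 2.46-fold higher in males (log2 difference -1.30, SE 0.15, edgeR adjusted p = 0.00016). The third, LOC103389827, was at 3409, 3152 and 3134 against 3836, 2817 and 2667 FPKM with overlapping pools (log2 difference 0.03, SE 0.14, edgeR adjusted p = 0.901). How reads shared by these copies were assigned is not given in the sources used here, so the split among copies is uncertain.

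Somatolactin, smtla, a teleost relative of growth hormone made in the pars intermedia, was at 6387, 7298 and 6704 against 10965, 13091 and 17940.3 FPKM, with every male pool above every female pool (log2 difference -1.06, SE 0.15, edgeR adjusted p = 0.000722). The alpha subunit cga, shared by the gonadotropins and thyrotropin, was 1.47-fold higher in males at 20695, 16770.3 and 14161 against 24478, 24272 and 26058 FPKM (edgeR adjusted p = 0.0124). Its luteinizing hormone partner lhb was at 32865, 25076 and 22457 against 32533, 31680.1 and 33376 FPKM and did not pass (log2 difference -0.30, edgeR adjusted p = 0.133); without female pool 1, its highest female value, the adjusted p was 0.00506. The thyrotropin subunit tshba ranged from 1567 to 4071 FPKM in females and from 1028 to 1909 in males (edgeR adjusted p = 0.14), and it passed without female pool 2, the lowest female pool (adjusted p = 0.0086). Prolactin, prl, at 7278, 6068 and 5999 against 6000.0, 3552 and 6076 FPKM, overlapped between the sexes (edgeR adjusted p = 0.3). The call of cga was lost without both libraries numbered 3 (edgeR adjusted p = 0.101), and quantile normalization with limma ended the calls of cga (adjusted p = 0.0992), smtla (0.136) and LOC103393769 (0.057).

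Summed over the list, hormones held 26.8, 29.4 and 29.7% of FPKM in the female pools and 23.6, 26.6 and 26.6% in the male pools. The female mean of 28.6 ± 1.56% and the male mean of 25.6 ± 1.77% (SD, n = 3 pools each) gave p = 0.1 in an exact two-sided permutation test, the smallest p that 3 against 3 pools allow. Without gh1 the order of the sexes turned: the other hormones held 14.3 ± 1.68% in females and 21.9 ± 2.19% in males, again at the smallest p of the exact permutation test, 0.1. With the hormone genes left out of the counts before scaling, 4116 genes were called in place of 4086.

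**Figure D1:**
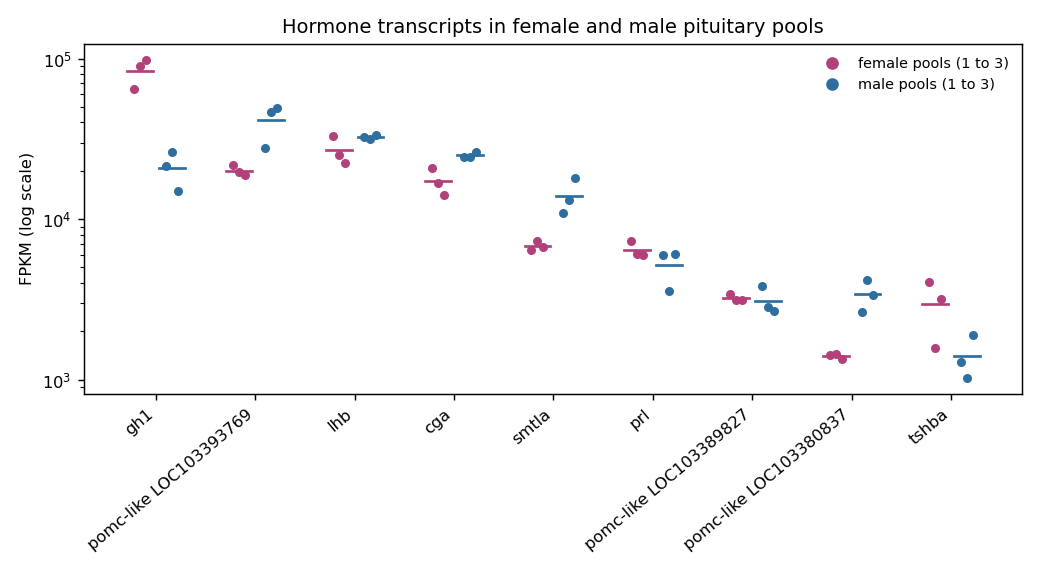
Level of each tested hormone gene in every pituitary pool, in FPKM on a log axis; points are single pools (female left, male right) and horizontal bars are the means of 3 pools. The female pools of gh1 lie at 64305 FPKM or higher and the male pools at 26339.8 FPKM or lower, while the pools of lhb, prl, tshba and LOC103389827 overlap between the sexes.

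A pair of abundant secreted proteins outside the hormone list, named after their values were seen, also separated the sexes. LOC103397625, annotated as a binding protein-like gene for corticotropin-releasing factor, the hypothalamic driver of corticotropin, was at 2776, 2337 and 2629.6 FPKM in the female pools and 5908, 6487 and 7259 in the male pools (2.58-fold higher in males, log2 difference -1.37, SE 0.11, edgeR adjusted p = 1.17e-05). It lies on the Z chromosome in the reference gene table. Clusterin, clu, an extracellular chaperone, was at 3498, 3529 and 3907 against 1539, 1732 and 1808 FPKM and 2.12-fold higher in females (log2 difference 1.08, SE 0.10, edgeR adjusted p = 3.98e-05).

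In the list of pituitary transcription factors, 4 of 39 tested members were higher in females, 7 were higher in males and 28 did not pass. These shares were close to the 12.4 and 14.3% of all genes. The list is not limited to factors that specify cell types and also holds, for example, egr1 and creb3l2. The median log2 difference was -0.07. The factor pou1f1, which drives growth hormone, prolactin and thyrotropin genes in vertebrates, was at 268, 204 and 189.7 FPKM in the female pools and 50.5, 59.8 and 79 in the male pools (log2 difference 1.78, SE 0.18, edgeR adjusted p = 0.000121). Each female pool held over 2 times the level of any male pool. Neurod1, a basic helix-loop-helix factor of corticotropes in mammals, was 1.91-fold higher in females at 178, 172 and 147 against 88.2, 71.9 and 95.7 FPKM (edgeR adjusted p = 0.000336). Foxo1a, a forkhead factor regulated by insulin-type signalling, was at 25.7, 32.4 and 29.5 against 19.8, 17.4 and 19.2 FPKM (log2 difference 0.61, edgeR adjusted p = 0.00293).

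The immediate early factor egr1, which in mammals relays gonadotropin-releasing hormone to the luteinizing hormone beta gene, was at 136, 134 and 32.3 FPKM in the female pools and 3.51, 8.65 and 8.94 in the male pools. All female pools were above all male pools, and female pool 3 was far below the other female pools (log2 difference 3.82, SE 0.79, edgeR adjusted p = 0.0303). Its call was lost without any one library other than female pool 3 (edgeR adjusted p between 0.0742 and 0.0967).

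Factors higher in males were of mixed roles. Gli3, an effector of hedgehog signalling, was at 1.76, 1.74 and 2.24 against 4.04, 3.4 and 4.01 FPKM (log2 difference -1.02, SE 0.16, edgeR adjusted p = 0.00108). Sox3, a factor of the early hypothalamus and pituitary, was at 4.97, 3.56 and 4.23 against 6.69, 8.66 and 6.98 FPKM (edgeR adjusted p = 0.0116, and 0.0519 without female pool 2). Bhlha15, which in mammals enlarges the secretory machinery of exocrine cells, was at 84.2, 61.4 and 75 against 87.7, 119.8 and 114 FPKM (edgeR adjusted p = 0.0164); it missed 0.05 without female pool 2 (0.0698), without male pool 2 (0.0575), without both libraries numbered 3 (0.0732) and after quantile normalization (0.0585). Creb3l2, a membrane-bound factor of the secretory pathway, was at 19.1, 18.2 and 18.7 against 28.1, 24.8 and 24.2 FPKM (log2 difference -0.49, SE 0.11, edgeR adjusted p = 0.00773). The smallest difference of those named here was that of eya1, a developmental cofactor of homeobox proteins, at 47.1, 46.3 and 43.8 against 59.9, 53.5 and 54.6 FPKM (edgeR adjusted p = 0.0389), which was lost when any library other than male pool 3 was left out (edgeR adjusted p from 0.0563 to 0.136), without both libraries numbered 3 (0.114), with no filter (0.0745) and after quantile normalization (0.102).

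Broad determinants of the gland did not pass the test. Pitx1, which marks the whole anterior pituitary in vertebrates, was at 402, 376 and 319 against 246, 333 and 347 FPKM (edgeR adjusted p = 0.2). Lhx3, needed for most pituitary lineages in mammals, was at 43.5, 38.3 and 30.4 against 26.7, 29.1 and 43.8 FPKM (edgeR adjusted p = 0.58), and passed as higher in females without both libraries numbered 3 (0.0406). Tbx19, the corticotrope and melanotrope factor that acts on proopiomelanocortin in mammals, was at 23.5, 17.7 and 19.3 against 21.8, 22.4 and 23.2 FPKM (edgeR adjusted p = 0.401), although 2 of the 3 proopiomelanocortin-like genes were higher in males.

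Receptors for hypothalamic and feedback signals were called in 16 of 22 tested cases, 8 higher in females and 8 higher in males, against 26.7% of all genes; the median log2 difference was -0.08. Of the 22 tested receptors, 8 had all female pools above all male pools and 10 had the reverse. Pools did not overlap in 44.2% of all tested genes. Leaving out single libraries gave between 13 and 15 calls, and leaving out both libraries numbered 3 gave 11.

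Receptors higher in females were for leptin, somatostatin, galanin, vasoactive intestinal peptide and growth hormone itself. The leptin receptor lepr was at 52.7, 71.7 and 54.7 FPKM in the female pools and 19.2, 21.1 and 13.1 in the male pools (log2 difference 1.71, SE 0.20, edgeR adjusted p = 0.00049). The somatostatin receptor sstr2a, of a class through which somatostatin restrains growth hormone release, was at 40.4, 25.2 and 20.4 against 11.9, 5.63 and 9.21 FPKM (log2 difference 1.66, edgeR adjusted p = 0.0232), with the call lost without male pool 3 (0.0809) or without both libraries numbered 3 (0.0803). A related copy, LOC103393002, was at 17.4, 14.6 and 14.6 against 8.92, 7.42 and 8.95 FPKM (edgeR adjusted p = 0.0025). The most abundant receptor of the list, the somatostatin receptor type 5-like LOC103392947, was at 125, 116 and 122 against 114, 124 and 146 FPKM and its pools overlapped (log2 difference -0.10, edgeR adjusted p = 0.497). Both galanin receptors tested were higher in females: galr1a stood at 29.5, 19.9 and 27.8 against 8, 10.7 and 10.3 FPKM (log2 difference 1.39, SE 0.18, edgeR adjusted p = 0.000349). The second, LOC103388657, stood at 34.6, 16.8 and 30.1 against 13.1, 9.08 and 12.3 FPKM (edgeR adjusted p = 0.0111, and 0.0875 without both libraries numbered 3). The vasoactive intestinal peptide receptor vipr1b had narrow groups, at 78.9, 86 and 78.6 against 37, 30.5 and 39.8 FPKM (log2 difference 1.16, SE 0.11, edgeR adjusted p = 4.5e-05). The growth hormone receptor ghra was lower in level and 1.65-fold higher in females at 5.07, 4.71 and 4.3 against 2.99, 2.16 and 3.24 FPKM (edgeR adjusted p = 0.0147, and 0.0569 without female pool 1), although it lies on Z in the reference gene table.

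Receptors higher in males were for dopamine, corticotropin-releasing factor, thyrotropin-releasing hormone, calcitonin-type peptides, pituitary adenylate cyclase-activating polypeptide, neuropeptide FF and gonadotropin-releasing hormone. The dopamine receptor drd2a, through which dopamine inhibits gonadotropin release in many teleosts, was at 25.9, 23.4 and 28 against 47.8, 41.5 and 40.6 FPKM (log2 difference -0.78, SE 0.12, edgeR adjusted p = 0.000792). The corticotropin-releasing factor receptor crhr1 was at 11.4, 9.67 and 12.2 against 16.6, 23 and 18.1 FPKM (log2 difference -0.82, SE 0.15, edgeR adjusted p = 0.00323). The binding protein-like gene LOC103397625 given above was also higher in males. The thyrotropin-releasing hormone receptor trhrb was at 8.57, 4.37 and 7.58 against 13.5, 11.2 and 13.7 FPKM (log2 difference -0.93, edgeR adjusted p = 0.0123; 0.0503 without male pool 1 and 0.0575 without both libraries numbered 3). Calcrla, the receptor that forms calcitonin gene-related peptide and adrenomedullin receptors, was at 9.85, 10.7 and 9.02 against 20.4, 18 and 12.6 FPKM (edgeR adjusted p = 0.00898). The receptor adcyap1r1b, for pituitary adenylate cyclase-activating polypeptide, was at 1.57, 1.6 and 1.28 against 2.47, 3.14 and 3.56 FPKM (edgeR adjusted p = 0.017, and 0.0607 without female pool 3 and 0.0941 without both libraries numbered 3). The neuropeptide FF receptor npffr1l2, placed on Z, was low in both sexes at 0.38, 0.65 and 1.29 against 3.51, 3.27 and 2.59 FPKM (log2 difference -2.04, SE 0.43, edgeR adjusted p = 0.0055).

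The 3 tested receptors for gonadotropin-releasing hormone split between the sexes. LOC103379388, with the highest level of the 3, was at 9.21, 5.48 and 5.92 against 16.6, 18 and 13.1 FPKM, 2.36-fold higher in males (log2 difference -1.24, SE 0.23, edgeR adjusted p = 0.00262). Higher in males too was gnrhr1, at 0.66, 0.41 and 0.87 against 2.8, 1.02 and 1.55 FPKM (edgeR adjusted p = 0.0343), and LOC103388047 was at 5.91, 1.64 and 3.77 against 1.46, 0.79 and 1.35 FPKM, higher in females (edgeR adjusted p = 0.0232). The last 2 calls were unsteady: that of gnrhr1 was lost without female pool 1 (0.09), female pool 2 (0.114) or male pool 1 (0.166) and with limma on log2(FPKM + 1) (0.0623) or log2(FPKM + 0.1) (0.0598), and that of LOC103388047 without any single library except female pool 2 (from 0.0547 to 0.1), without both libraries numbered 3 (0.116) and after quantile normalization (0.0544).

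**Figure D2:**
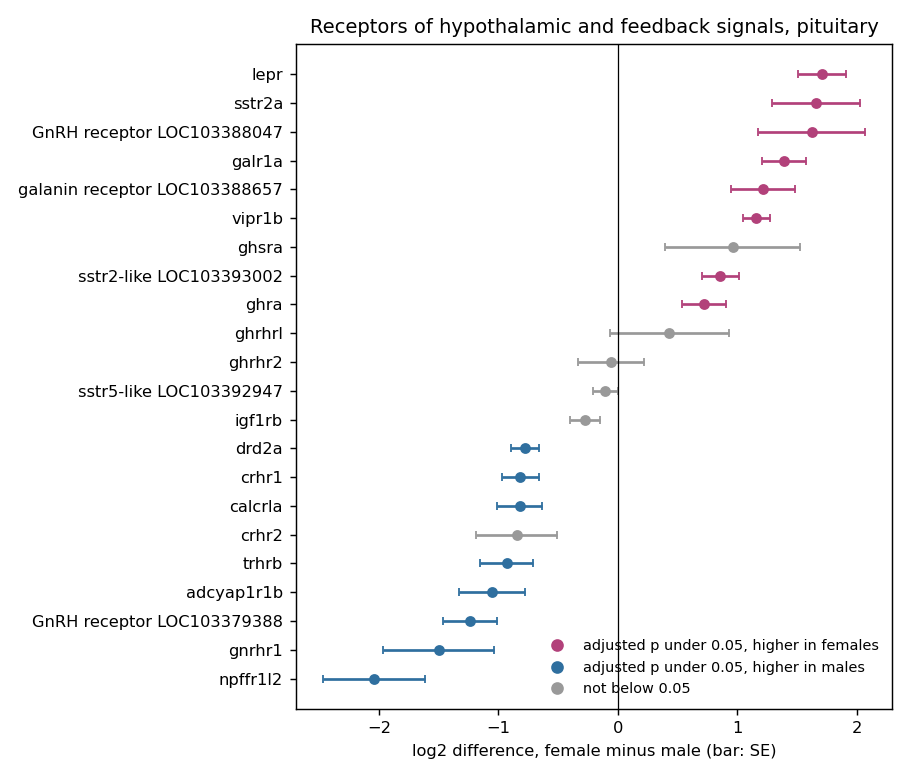
Log2 difference between female and male pituitary for the 22 tested receptors, with bars of 1 SE from the edgeR fit; colour shows the direction of genes with an adjusted p under 0.05. The 8 receptors higher in females run from ghra at 0.72 to lepr at 1.71, and the 8 higher in males from drd2a at -0.78 to npffr1l2 at -2.04.

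In the list of neuropeptides and local signals, which includes growth factors, 7 of 24 tested members were called. This share was close to the 26.7% of all genes. Of the called members, 2 were higher in females and 5 higher in males. The peptide gene nms, given below, is not in this list. Agouti-related protein, agrp, an antagonist at melanocortin receptors known for driving feeding in the hypothalamus, was at 89.8, 68.3 and 63.8 against 4.08, 2.34 and 7.87 FPKM (15.3-fold higher in females, log2 difference 3.94, SE 0.35, edgeR adjusted p = 0.00021). A second gene of the agouti family, LOC103377057, annotated as agouti-signaling protein-like, went the other way at 83.6, 67.5 and 64.2 against 194, 136 and 121 FPKM (log2 difference -1.09, SE 0.19, edgeR adjusted p = 0.00392). The opioid precursor penka was at 419, 263 and 294 against 731, 1126 and 646 FPKM (log2 difference -1.39, SE 0.27, edgeR adjusted p = 0.0125), and a further opioid precursor, pdyn, was at 1.49, 0.68 and 1.51 against 7.06, 3.02 and 6.01 FPKM (log2 difference -2.15, edgeR adjusted p = 0.00381). Both opioid precursors had every male pool above every female pool. Vasotocin, avp, the fish counterpart of vasopressin, was low in both sexes at 0.81, 0.47 and 0.5 against 2.21, 2.23 and 2.85 FPKM (log2 difference -2.02, SE 0.46, edgeR adjusted p = 0.00848); it is placed on Z, and its adjusted p was 0.0514 without both libraries numbered 3.

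Neuromedin S and a neuromedin receptor were both higher in females. The peptide gene nms, known from the mammalian hypothalamus, was at 23.5, 44.1 and 39.5 FPKM in the female pools and 5.75, 6.42 and 3.34 in the male pools (6.71-fold, log2 difference 2.75, SE 0.31, edgeR adjusted p = 0.00014). The receptor gene nmur1a, annotated as neuromedin-U receptor 1-like, was at 90.8, 106 and 81.2 FPKM in the female pools and 20.9, 17 and 17.1 in the male pools (4.95-fold, log2 difference 2.31, SE 0.14, edgeR adjusted p = 8.4e-07). In both genes the highest male pool was less than 0.5 of the lowest female pool. The brain held little nmur1a, between 0.14 and 0.46 FPKM in female and between 0.34 and 0.85 FPKM in male pools.

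Nuclear receptors and enzymes of steroid and thyroid hormone signalling were called in 11 of 26 tested cases, with a median of -0.30. Of the 26, 7 were higher in females and 4 higher in males, against 12.4 and 14.3% of all genes. Rxraa, a retinoid X receptor that pairs with the thyroid hormone receptor, was at 75, 63.2 and 65.5 FPKM in the female pools and 15, 14.7 and 22.5 in the male pools (log2 difference 1.94, SE 0.16, edgeR adjusted p = 1.11e-05). The thyroid hormone receptor thrb was at 5.7, 5.1 and 7.22 against 1.9, 1.73 and 1.4 FPKM (log2 difference 1.81, SE 0.23, edgeR adjusted p = 0.000277). Both receptors were more than 2-fold higher in each female pool than in any male pool. The receptors for progesterone split: pgr was at 5.5, 5.48 and 4.71 against 2.23, 1.38 and 2.76 FPKM (log2 difference 1.28, SE 0.22, edgeR adjusted p = 0.00174), while a second gene annotated as progesterone receptor-like, LOC103391230, was at 6.05, 5.73 and 7.07 against 10.9, 12 and 11.5 FPKM (log2 difference -0.89, SE 0.14, edgeR adjusted p = 0.00121). The estrogen receptor esr1 was higher in males at 259, 312 and 285 against 504, 600.1 and 454 FPKM (edgeR adjusted p = 0.000622), and esr2a was at 28, 28.7 and 28.4 against 34.2, 31.9 and 33.4 FPKM (edgeR adjusted p = 0.0706). Aromatase, LOC103380488, which makes estrogen, was at 7.94, 13.6 and 15.4 against 44.9, 44.2 and 35.2 FPKM (log2 difference -1.78, SE 0.23, edgeR adjusted p = 0.00127).

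Genes of secretory granules also split. Of 18 tested granins and prohormone processing genes, 3 were higher in females and 6 higher in males, against 12.4 and 14.3% of all genes. Prohormone convertases 1 and 2, which cut proopiomelanocortin, were both higher in males: pcsk1 was at 128, 117 and 117 against 193, 229 and 188 FPKM (log2 difference -0.78, SE 0.11, edgeR adjusted p = 0.000669). Pcsk2 was at 237, 202 and 211 against 377, 561 and 443 FPKM (log2 difference -1.11, SE 0.15, edgeR adjusted p = 0.000345). Carboxypeptidase E, cpe, which trims the cut peptides, was at 932, 864 and 781 against 775, 750.3 and 801 FPKM and did not pass (edgeR adjusted p = 0.396). Granins, which form the granule core, went both ways. Chga was at 1416, 1097 and 1192 against 731, 611 and 704 FPKM (log2 difference 0.83, SE 0.12, edgeR adjusted p = 0.000658). The paralogs of secretogranin 2 were opposite in direction, scg2a at 339, 311 and 377 against 228, 258 and 214 FPKM (log2 difference 0.52, edgeR adjusted p = 0.00758) and scg2b at 226, 206 and 200.3 against 272, 401 and 289 FPKM (-0.63, edgeR adjusted p = 0.0103). Scg3, the gene of highest level in the list, was 1.31-fold higher in females at 16679.6, 15891 and 15232 against 11987, 12247 and 11574 FPKM (edgeR adjusted p = 0.0199), a call that was lost without female pool 2 (0.0703), without male pool 3 (0.0732) and after quantile normalization (0.0916). Without both libraries numbered 3 the calls of scg2a (0.0801) and scg3 (0.131) were lost and the list held 5 called genes in place of 9.

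For the machinery of regulated exocytosis, 1 of 19 tested members was higher in females and 5 were higher in males. The shares of all genes were 12.4 and 14.3%. The vesicle protein syt4 was at 134, 115 and 121 against 219.5, 211 and 187 FPKM (log2 difference -0.77, SE 0.11, edgeR adjusted p = 0.000672), and the priming factor cadps2 was the one higher in females at 7.35, 5.39 and 5.14 against 3.49, 3.2 and 3.28 FPKM (log2 difference 0.82, SE 0.17, edgeR adjusted p = 0.0059). Between 3 and 8 members were called when single libraries were left out.

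Genes of protein folding in the endoplasmic reticulum were called about as often as all genes, with 7 of 49 tested members higher in females and 5 higher in males, and between 4 and 11 called when single libraries were left out. Ern1, the sensor that splices xbp1 messenger RNA, was at 155, 153 and 124 FPKM in the female pools and 53.5, 51.5 and 65.9 in the male pools (log2 difference 1.32, SE 0.13, edgeR adjusted p = 3.59e-05). The protein disulfide isomerase p4hb was at 761, 886 and 861 against 487, 478 and 487 FPKM (log2 difference 0.76, SE 0.10, edgeR adjusted p = 0.000324). The stress-induced factor ddit3 was higher in males at 35.6, 35.4 and 29 against 73, 69.4 and 63.8 FPKM (log2 difference -1.07, SE 0.12, edgeR adjusted p = 0.000118). The splicing target of ern1 has a copy on each sex chromosome in the reference gene table, and these were opposite in direction. The Z copy, xbp1, was at 192, 172 and 150.2 against 291, 388 and 341 FPKM (log2 difference -1.01, SE 0.13, edgeR adjusted p = 0.000324), and the W copy, LOC103396890, was at 115, 107 and 103 against 41.1, 52.5 and 47.5 FPKM (log2 difference 1.18, SE 0.12, edgeR adjusted p = 4.5e-05). Males carry no W chromosome, yet between 41.1 and 52.5 FPKM were assigned to the W copy in male pools, so the split between the copies is uncertain.

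Genes known to respond to glucocorticoids were mostly higher in males. Of 23 tested members, 13 were higher in males and 1 in females, against 14.3 and 12.4% of all genes, and 9 did not pass. The median log2 difference was -1.02. The list shares 6 tested genes, cebpb, cebpd, ddit4, dusp1, klf9 and per1b, with the immediate early and stress list. The transcriptional regulator tsc22d3 was at 30.7, 35.9 and 39 FPKM in the female pools and 325, 204 and 178 in the male pools (6.84-fold higher in males, log2 difference -2.77, SE 0.25, edgeR adjusted p = 0.000274). Cebpd was at 54.5, 105 and 129 against 467, 459 and 290.4 FPKM (log2 difference -2.11, edgeR adjusted p = 0.016) and was lost without female pool 2 (0.0529), male pool 1 (0.0523) or male pool 2 (0.0582). The factor klf9, placed on Z, was at 4.29, 5.83 and 6.07 against 16.1, 9.23 and 13.1 FPKM (log2 difference -1.27, SE 0.21, edgeR adjusted p = 0.00214). The chaperone fkbp5, which lowers receptor sensitivity to glucocorticoids, was at 61.7, 153 and 204 against 672, 602 and 369 FPKM. Female pool 1 was far below the other female pools, and the gene missed the threshold (log2 difference -2.0, edgeR adjusted p = 0.0541). It passed without female pool 1 (edgeR adjusted p = 0.0264), with a filter at 5 FPKM (0.0399), with DESeq2 (0.000615) and in the 3 limma fits (0.0291 to 0.0494). Without any other single library it did not pass (edgeR adjusted p from 0.0637 to 0.145). The growth inhibitor ddit4 had the same order of pools at 22.9, 83.5 and 160.4 against 476, 393 and 233 FPKM (edgeR adjusted p = 0.139, DESeq2 adjusted p = 0.0319). Between 11 and 14 members were called when single libraries were left out.

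Of 34 tested immediate early and stress genes, 3 were higher in females and 12 higher in males, against 12.4 and 14.3% of all genes. The 6 genes shared with the glucocorticoid list are counted in both lists. Higher in females were egr1, with the unsteady call given above (log2 difference 3.82), and dusp2, placed on Z, among others. Dusp2 was at 11.8, 15.4 and 10.3 against 3.4, 6.47 and 6.84 FPKM (log2 difference 1.15, SE 0.26, edgeR adjusted p = 0.0117). The median was -0.48. The feedback inhibitor of cytokine signalling socs3a was at 6.24, 13.4 and 22.1 against 83.5, 79 and 51.2 FPKM (log2 difference -2.39, edgeR adjusted p = 0.0296). Its female pools spread more than 3-fold, and the call was lost without female pool 2 (0.1), male pool 1 (0.0783) or male pool 2 (0.0931), with no filter (0.0507) and with a term for replicate number (0.0979).

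Genes of sugar use were mostly higher in males. Of 35 tested glycolysis and gluconeogenesis genes, 18 were higher in males and 1 was higher in females, against 14.3 and 12.4% of all genes. The median was -0.43. The first enzyme of the pathway, hexokinase, accounted for the largest differences: hk1 was at 13.8, 16.7 and 19.5 FPKM in the female pools and 134, 121 and 81.7 in the male pools (6.9-fold higher in males, log2 difference -2.79, SE 0.22, edgeR adjusted p = 7.01e-05). A second hexokinase-1-like gene, LOC103383177, was at 62.7, 56.1 and 60.7 against 137, 149 and 109 FPKM (log2 difference -1.17, SE 0.13, edgeR adjusted p = 0.000124). The glucose transporter slc2a1b was at 89.2, 114 and 97.7 against 180.3, 204 and 149 FPKM (log2 difference -0.86, SE 0.14, edgeR adjusted p = 0.00156). The one gene higher in females was a hexokinase-2 entry (XLOC_024614) with 133 counts over the female pools and 0 over the male pools. It was at least 45.9-fold higher when 3 counts over the male group are taken as the floor. The entry has no chromosome in the reference gene table, so whether it lies on W is not known. A hexokinase-2-like gene placed on Z, LOC103397466, was higher in males at 15.45, 16.8 and 17.8 against 25.8, 26.1 and 26.2 FPKM (log2 difference -0.67, SE 0.10, edgeR adjusted p = 0.000807). Whether these entries are copies of the same gene was not tested.

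In lipid synthesis 6 of 38 tested genes were higher in females and 8 higher in males, against 12.4 and 14.3% of all genes. Those higher in males included some enzymes of fatty acid synthesis: scdb, the desaturase, was at 59.1, 57.9 and 68.6 against 135, 153 and 107 FPKM (log2 difference -1.12, SE 0.15, edgeR adjusted p = 0.000324). Aclya, which supplies acetyl units, was at 14.7, 18.1 and 20.3 against 34.8, 35.8 and 36.8 FPKM (log2 difference -1.04, SE 0.12, edgeR adjusted p = 0.000159), and elovl5, which lengthens polyunsaturated fatty acids, was at 2.52, 2.72 and 3.14 against 7.26, 6.85 and 4.44 FPKM (edgeR adjusted p = 0.00664). Fatty acid enzymes did not all go this way. Elovl6, which lengthens saturated fatty acids, was higher in females at 30.1, 32.1 and 22.3 against 19.7, 14.8 and 22.8 FPKM (log2 difference 0.54, SE 0.17, edgeR adjusted p = 0.0428), with overlapping pools; this call was lost in each of the 3 limma fits (0.0502 to 0.0576) and without female pool 1, female pool 2, male pool 1 or male pool 2 (0.108 to 0.14). Fatty acid synthase, fasn, was at 50.3, 42.6 and 44.5 against 55, 51.6 and 53.7 FPKM and did not pass (edgeR adjusted p = 0.0945, and 0.0459 without female pool 1), nor did the desaturase fads2 at 23.9, 21.7 and 27.4 against 26.1, 25.9 and 28.8 FPKM (edgeR adjusted p = 0.302). The lipoprotein receptor ldlra was also higher in males at 3.52, 2.42 and 2.99 against 6.93, 5.69 and 6.53 FPKM (edgeR adjusted p = 0.00126). Enzymes of the cholesterol pathway were among those higher in females, with squalene monooxygenase sqlea at 4.67, 3.55 and 5.92 against 2.58, 2.66 and 2.31 FPKM (edgeR adjusted p = 0.0157) and lathosterol oxidase sc5d at 12.2, 12.3 and 11.6 against 7.85, 8.23 and 7.1 FPKM (edgeR adjusted p = 0.0177). The call of sqlea was lost without female pool 3 (0.0787) and both libraries numbered 3 (0.116), and that of sc5d without female pool 1 (0.0523), female pool 2 (0.0653) and both libraries numbered 3 (0.0681).

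Genes of the extracellular matrix and of support cells leaned to males. Of 93 tested matrix and adhesion genes, 32 were higher in males and 2 in females, against 14.3 and 12.4% of all genes. The median was -0.38. Single libraries left out gave between 23 and 33 called members. Proteases that cut matrix were among the leading genes: adamts9 was at 0.4, 0.28 and 0.26 against 5.55, 6.09 and 4.65 FPKM (17.5-fold higher in males, log2 difference -4.13, SE 0.22, edgeR adjusted p = 3.02e-07). Adamts1 was at 6.08, 6.21 and 5.54 against 19, 17.5 and 17.4 FPKM (log2 difference -1.62, SE 0.11, edgeR adjusted p = 2.55e-06). The cell surface proteoglycan sdc4 was at 12.7, 19.9 and 22.2 against 85.2, 54.6 and 50.8 FPKM (log2 difference -1.83, SE 0.29, edgeR adjusted p = 0.00511), and the thrombospondin-1-like gene LOC103393533 was at 0.32, 0.46 and 0.73 against 5.68, 7.33 and 6.04 FPKM (edgeR adjusted p = 3.33e-06).

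Markers of stellate, glial and vascular cells moved with the matrix genes. Of 17 tested members 8 were higher in males and 0 in females, against 14.3 and 12.4% of all genes. The median was -0.52. The endothelial receptor kdr was at 8.22, 10.6 and 9.07 against 14.2, 14.4 and 14.4 FPKM (log2 difference -0.65, SE 0.12, edgeR adjusted p = 0.00241), and the glial glutamate transporter slc1a3a, placed on Z, was at 1.28, 1.88 and 2.13 against 3.21, 4.05 and 3.48 FPKM (edgeR adjusted p = 0.0104). Over the whole list of 22 genes the summed level was 803 to 835 FPKM in female pools and 1025 to 1094 FPKM in male pools, with no member at 0 in all 6. Their part in the matrix and sugar results was not tested.

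Blood and immune genes had 4 of 26 tested members higher in females and 0 in males, against 12.4 and 14.3% of all genes. All were low: the macrophage receptor csf1ra was at 2.62, 2.9 and 2.64 against 0.55, 0.93 and 1.25 FPKM (log2 difference 1.57, SE 0.27, edgeR adjusted p = 0.00187), the B-cell genes cd79b and cd79a at 5.44, 5.81 and 4.31 against 2.67, 1.26 and 1.27 FPKM and 2.98, 3.93 and 4.26 against 1.9, 1.11 and 1.24 FPKM (edgeR adjusted p = 0.0104 and 0.0225), and the granulocyte peroxidase mpx at 2.43, 2.33 and 2.43 against 0.91, 1.28 and 1.3 FPKM (edgeR adjusted p = 0.00938). The call of cd79a was lost without female pool 2 (0.0698), female pool 3 (0.0762), male pool 2 (0.0661) or both libraries numbered 3 (0.108). The summed level of the 43 listed genes overlapped, at 1143 to 1183 FPKM in females and 1105 to 1249 FPKM in males, and hemoglobin genes were among them.

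Of 13 tested neuron markers, 2 were higher in females and 0 in males, against 12.4 and 14.3% of all genes. The heavy neurofilament nefh was at 3.89, 2.98 and 4.53 against 0.63, 0.81 and 0.96 FPKM (log2 difference 2.23, SE 0.25, edgeR adjusted p = 0.000126) although it lies on Z, and the RNA-binding protein elavl4 was at 11.6, 11.9 and 12.4 against 6.37, 6.03 and 7.39 FPKM (log2 difference 0.84, SE 0.13, edgeR adjusted p = 0.00122). Summed over 22 markers the level was 76.9 to 89.9 FPKM in female and 77.9 to 80.7 FPKM in male pools. In the cell cycle list 1 of 23 tested genes was called, against 26.7% of all genes. This was pcna, placed on Z, a sliding clamp of DNA replication, at 24.6, 24.6 and 35.1 against 70.8, 58.1 and 146 FPKM (edgeR adjusted p = 0.0294). It did not pass without female pool 1 (0.09), female pool 2 (0.0953), female pool 3 (0.0518) or male pool 1 (0.0529), nor with no filter (0.0536).

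**Figure D3:**
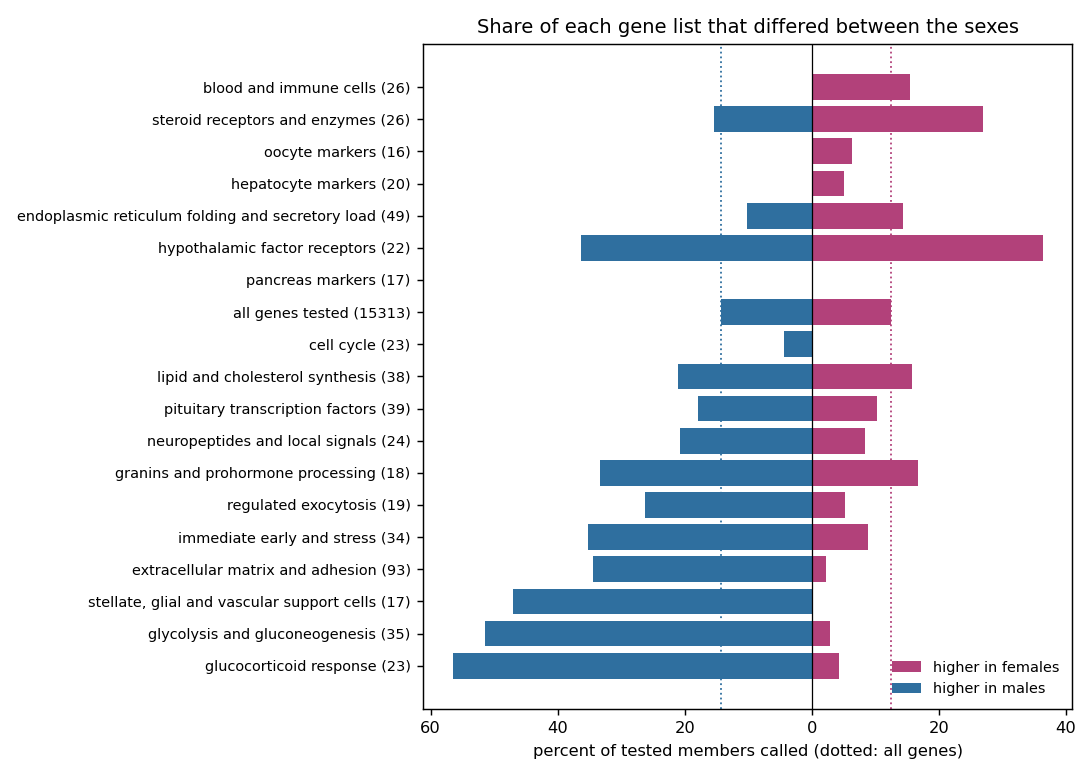
Percent of the tested members of each gene list (number tested in brackets; lists with at least 15 tested) called higher in females, to the right, or in males, to the left; dotted lines mark 12.4 and 14.3%, the shares of all tested genes. Glucocorticoid response, sugar use and support cells extend furthest to the left, and the receptors extend to both sides.

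The 12 largest differences higher in males, leaving out the W chromosome, were of mixed roles, and several outside the gene lists are given here. Mibp, a nicotinamide riboside kinase of the NAD salvage pathway, was at 0.65, 1.32 and 1.66 against 33, 41.1 and 26.2 FPKM (28.2-fold, log2 difference -4.82, SE 0.30, edgeR adjusted p = 1.81e-06). The amino acid transporter slc38a4 was at 2.95, 4.07 and 5.36 against 51.1, 33.8 and 32.4 FPKM (9.7-fold, log2 difference -3.28, SE 0.26, edgeR adjusted p = 8.18e-05). LOC103385877, annotated as an amino acid transporter of the SLC6A17 kind, was at 0.35, 1.27 and 1.08 against 4.86, 10.7 and 7.17 FPKM (log2 difference -3.10, SE 0.46, edgeR adjusted p = 0.00267). Mgarp, a protein of mitochondria in mammals, had the highest level of these genes at 11, 20.6 and 27.9 against 245, 124 and 127 FPKM (log2 difference -3.09, SE 0.49, edgeR adjusted p = 0.0117), and the call was lost without female pool 2 (0.0507). LOC103397409, a metalloproteinase-disintegrin-like gene placed on Z, was at 1.48, 2.16 and 4.79 against 23.1, 27.1 and 11.5 FPKM (log2 difference -2.91, SE 0.58, edgeR adjusted p = 0.0216); it missed 0.05 without female pool 2 (0.0825), male pool 1 (0.0604) or male pool 2 (0.0626). LOC103387236, annotated as like the stress gene DDIT4, was at 0.3, 1.04 and 1.6 against 9.68, 6.58 and 4.34 FPKM (log2 difference -2.85, edgeR adjusted p = 0.00799). The secreted phospholipase pla2g3 was at 0.99, 2.01 and 1.5 against 6.6, 9.54 and 8.85 FPKM (log2 difference -2.49, SE 0.27, edgeR adjusted p = 7.93e-05). Usta, a sulfotransferase of matrix sugars that is not among the 12 and is named for its difference from brain, was at 4.08, 2.76 and 4.29 against 20.4, 14.5 and 13.3 FPKM (log2 difference -2.15, SE 0.22, edgeR adjusted p = 7.68e-05). The 12 were taken from called genes whose pools did not overlap, so their separation is not a further result. Usta was chosen by a term that contains the same pituitary values, so its separation is not a further result either. Among the 12 largest higher in females, 3 entries had 1 count and 1 entry had 0 counts over the male pools. The latter (XLOC_024587, a transposase) had 510 counts over the female pools, at least 176-fold higher by the same floor. LOC103396973, XLOC_024469 and XLOC_024587 had no chromosome in the reference gene table, so leaving out W could not remove them. The same holds for XLOC_024547, XLOC_024722 and LOC103397073, also among the 12 largest higher in females. The remaining entry with few male counts, LOC103376792, is placed on chromosome 2. In brain it was also higher in females (log2 difference 8.25, edgeR adjusted p = 1.05e-05), as were LOC103396973 (8.97), XLOC_024469 (6.10) and XLOC_024587 (7.42).

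Sex chromosomes stood apart. The reference gene table (assembly Cse_v1.0; the build used for the deposited values is not given in the sources used here) placed 147 tested genes on W, of which 133 were higher in females and 1 in males. With untested genes, 246 were placed on W. A W gene below 1 FPKM in every male pool was tested only if all female pools reached 1 FPKM. The direction of such genes, LOC103397133 and LOC103397105 among them, was set by the filter, so their share is not a separate result. The 2 called W genes of highest level are ribosomal: LOC103397139, like the large subunit protein L6, was at 531, 503 and 530.4 FPKM in the female pools and 0.37, 1.04 and 4.5 in the male pools, and LOC103397057, like L35, at 439.9, 315 and 298 against 0.58, 0.58 and 3.24 FPKM. Cathepsin L1-like LOC103397133 was at 104, 86.5 and 88.2 against 0.21, 0.23 and 0.46 FPKM. LOC103397105, annotated as transitional endoplasmic reticulum ATPase-like, was at 63.9, 64.1 and 68.1 against 0.1, 0.16 and 0.3 FPKM. LOC103396980, like the alpha subunit of mitochondrial ATP synthase, was at 63, 52 and 56.6 against 0.34, 0.13 and 1.29 FPKM. In LOC103397139, LOC103397057 and LOC103396980 the small male level was at least 2 times higher in male pool 3 than in the other male pools.

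On Z, 245 of 656 tested genes were higher in males and 28 in females, which is 37.3 and 4.27% against 13.7 and 12.1% of 13540 autosomal genes. The median log2 difference was -0.35 on Z and 0.020 on autosomes. The genes ghra and nefh, described above, are among the 28.

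**Figure D4:**
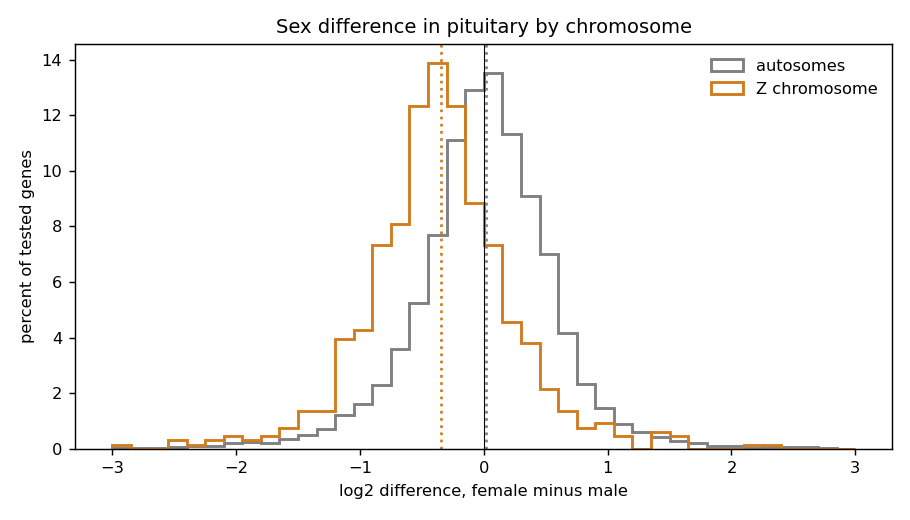
Distribution of log2 differences (female minus male) of tested genes on autosomes (n = 13540) and on Z (n = 656), as percent of each set in steps of 0.15 between -3 and 3; dotted lines are the medians. The Z distribution sits to the left, with its median at -0.35 against 0.020 on autosomes.

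Female pool 3 and male pool 3 carried transcripts of other organs. The 37 oocyte markers summed to 74.2, 63.1 and 159 FPKM in the female pools and 51.3, 82.7 and 246 FPKM in the male pools, against 29051 FPKM in ovary. The 30 hepatocyte markers summed to 173, 144 and 458 FPKM in females and 156, 158 and 237 FPKM in males, and the 34 pancreas markers to 106, 94.2 and 246 FPKM in females and 110, 105 and 162 FPKM in males. All 3 lists were highest in pool 3 of each sex, while neuron markers lay between 76.9 and 89.9 FPKM in all 6 pools. Counting genes at 1 FPKM or more and at least 3 times the highest of the 4 other libraries, 63 genes were raised in both libraries numbered 3, of which 60 were at least 10 times higher in ovary. No gene was raised in both libraries numbered 1 or in both numbered 2. Examples are the egg coat genes LOC103392929, at 17.5 FPKM in female pool 3 and 19.5 in male pool 3 with at most 3.76 elsewhere in pituitary and 5018 in ovary, and LOC103396071, at 16.8 and 19.1 with at most 1.68 elsewhere and 4173 in ovary.

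Male pool 3 also held a separate set. Against the highest of all other 5 pituitary libraries 147 genes were raised in male pool 3, compared with between 5 and 28 in each of the other libraries. Of these 147 genes, 137 were at least 10 times higher in testis and 32 at least 10 times higher in ovary. LOC103394946, a transporter-like gene of the ABCG family, was at 16.5 FPKM in male pool 3, at most 0.34 in the others and 669 in testis. Henmt1, which modifies small RNAs of the germ line, was at 7.05 with at most 0.11 elsewhere and 275 in testis, and the germ cell RNA-binding gene rbm46 at 3.36 with at most 0.070 elsewhere and 130 in testis. Female pool 3 had 20 genes raised in it alone, 1 of them at least 10 times higher in ovary.

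Raised genes vary within a sex by their choice, so their calls between the sexes are not given. Without both libraries numbered 3, 3409 genes were called, of which 2923 were among the 4086. Without male pool 3 alone the count rose to 4376, and without female pool 3 alone it was 2923.

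**Figure D5:**
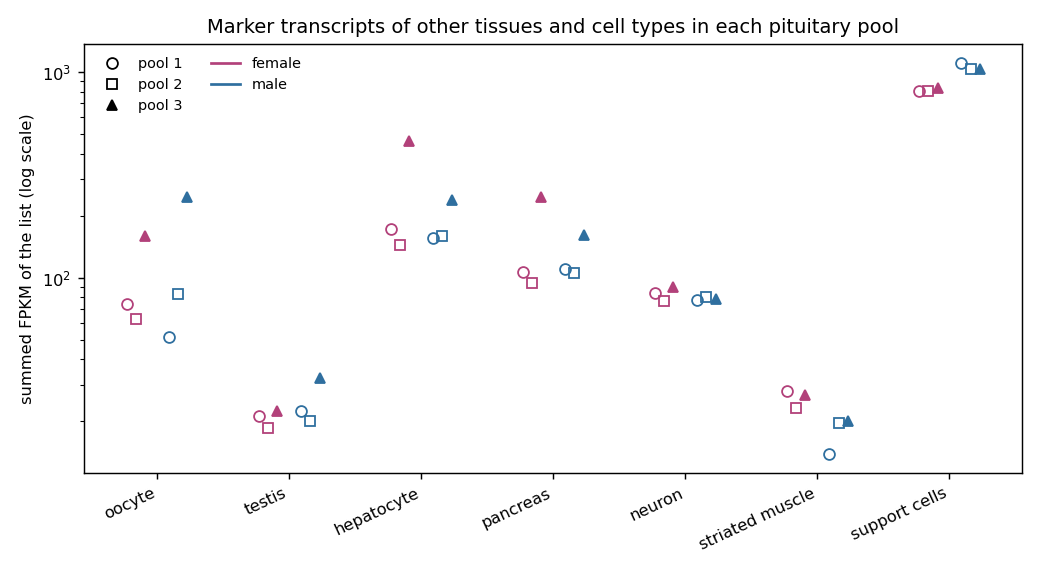
Summed FPKM (log axis) of marker lists of other tissues and cell types in each pituitary pool; circles, squares and filled triangles are pools 1, 2 and 3, with females to the left and males to the right. The triangles of the oocyte, hepatocyte and pancreas lists lie above the other pools of their sex, and the support cell list separates the sexes at 803 to 835 against 1025 to 1094 FPKM.

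Whether the sex difference differed between pituitary and brain was tested by an interaction of sex and organ in a joint edgeR fit of 12 libraries. Liver was not compared, so the test does not show that a difference is particular to the pituitary. It passed for 1340 of 17366 genes (7.72%), of which 1034 were called in pituitary. In 113 genes both organs were called with opposite direction. In 114 both were called with the same direction and a larger difference in pituitary. Gh1 was at 36.7 to 49.2 FPKM in female and 37.0 to 54.6 in male brains, and its sex difference was larger in pituitary by 2.09 on the log2 scale (SE 0.34, edgeR adjusted p = 0.00473). For lepr the log2 difference was 1.71 in pituitary and -0.64 in brain (sex by tissue 2.34, edgeR adjusted p = 0.00331). For vipr1b the values were 1.16 and -0.47 (sex by tissue 1.62, edgeR adjusted p = 0.000136), and for usta -2.15 and 0.18 (sex by tissue -2.34, edgeR adjusted p = 0.000239). Neither nms nor xbp1 passed this test, at edgeR adjusted p = 0.19 and 0.134.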

How the data were processed

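RNA was extracted per the labels' protocols from mixed tissue of 5 fish per library and sequenced on an Illumina HiSeq. Per the file headers the authors deposited FPKM and an estimated count for every gene and library; 22773 genes were listed. TopHat2 2.0.3.12 and Bowtie2 are named in the submitters' processing notes; quantification, build, annotation and strand handling are not given in the sources used here.

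Estimated counts were rounded and tested with edgeR 4.0.16 (R 4.3.3; TMM scaling, robust quasi-likelihood fit) without a replicate term, over the 6 pituitary libraries; the sex-by-brain test used 12. An SE is the absolute log2 difference over the square root of F. Levels are FPKM, with SD over 3 pools; folds come from counts. Intervals and floors cover counting error only. Of 20373 genes with an NCBI identifier, 19502 were found in the reference gene table, which gave symbols and chromosome. Nothing states that replicate numbers pair pools.

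Gene lists (23, from which 62 wrong matches by product name were removed) and all comparisons were chosen with earlier results of these data known. Named genes are the tested members of the hormone, transcription factor and receptor lists, the leading called and the most abundant uncalled members of other lists, the 12 largest differences per direction (at least 5 FPKM, described product, not on W), the 6 most abundant called W genes, genes raised in libraries numbered 3, and the 5 largest sex by tissue terms per direction; LOC103397625 and clu were added after their values were seen, and some genes that the rule names are not reported here. Alternatives were other scalings, filters, DESeq2 1.42.0, limma 3.58.1 on log2 FPKM, a replicate term, and libraries left out. The fits were tested on simulated data.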

Additional observations from a re-analysis of the deposited data

Results flagged for a closer look

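The genes below were set apart because their sex difference in pituitary differed from that in brain in the sex by tissue test of edgeR. They are the called members of the hormone, transcription factor and receptor lists and the 5 largest terms in each direction; each is given with the difference of the differences (pituitary minus brain, log2) and the adjusted p of that term.

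More female-sided in pituitary than in brain were LOC103386020 (3.53, 0.0232), LOC103398003 (3.98, 0.013), agrp (3.26, 0.0071), calb2a (4.18, 0.0131), galr1a (1.54, 0.00138), gh1 (2.09, 0.00473), lepr (2.34, 0.00331), nmur1a (3.34, 0.00125), sstr2a (1.79, 0.0233) and vipr1b (1.62, 0.000136). Nmur1a was too low in brain to be tested there alone. LOC103398003, an actin-like gene, was not called in pituitary alone (edgeR adjusted p = 0.101), where its pools overlapped. Its brain pools were at 0.17 to 0.48 FPKM in females and 1.95 to 2.75 FPKM in males. Calb2a, calretinin, was at 61.4 to 98.1 FPKM in brain and at 12.4 to 55.0 against 1.30 to 2.61 FPKM in female and male pituitary. LOC103386020, an nr4a1-like immediate early gene, was not called in pituitary alone (edgeR adjusted p = 0.0678) and was at 3.84 to 10.1 FPKM in female and 17.1 to 37.1 in male brains.

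More male-sided in pituitary than in brain were LOC103384484 (-2.74, 0.00184), LOC103385877 (-2.36, 0.0103), adcyap1r1b (-0.77, 0.0316), ch25h (-2.40, 0.0018), creb3l2 (-1.18, 0.00118), crhr1 (-0.84, 0.0278), drd2a (-0.61, 0.0261), eya1 (-0.71, 0.0381), gli3 (-0.91, 0.0276), kcne4 (-2.78, 0.0422), sox3 (-1.20, 0.00288) and usta (-2.34, 0.000239). Of these, LOC103384484 (HES-5-like), ch25h (cholesterol 25-hydroxylase) and kcne4 (a potassium channel subunit) were not called in pituitary alone, and all 3 were higher in every female brain pool than in any male brain pool. LOC103385877, an amino acid transporter-like gene, was higher in males in pituitary (log2 difference -3.10) and in brain (-0.76). Kcne4 was at 3.60 FPKM in female pool 3 against 0.98 and 0.93 in the other female pools.

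The term was lost when single libraries were left out for kcne4 (4 of 6 libraries), eya1 (5), gli3 (3), adcyap1r1b (3), crhr1, drd2a and LOC103386020 (2 each). That of adcyap1r1b was also lost with both libraries numbered 3 left out (adjusted p = 0.12).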

How the results depend on the processing

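Calls numbered 4086 and stayed between 3406 and 4146 under the other scalings, filters and tests and with both libraries numbered 3 left out; leaving out single libraries gave 2661 to 4376, the lowest without female pool 2. Calls higher in females ranged from 1170 to 2037 and calls higher in males from 1491 to 2339 when single libraries were left out, and sex by tissue calls from 1066 to 1918 around 1340. Fewer pools are tested in these fits. The share of calls higher in females was 46.5%, and 42.2 to 51.5% over the alternatives. The female minus male hormone share, 3.04 percentage points, ranged from 2.02 to 3.93 without single libraries and was 2.03 for summed counts. With a replicate block 3406 genes were called and 1607 in the sex by tissue test; the numbers were not taken to pair the pools, as no label says so and the deviations of same-numbered female and male pituitary pools correlated at -0.10, 0.17 and 0.051, those of pituitary and brain of a sex at -0.0088 to 0.20, although 63 genes were raised in both pituitary libraries numbered 3. Under the block egr1 (adjusted p = 0.118), eya1 (0.0643), scg3 (0.0523), socs3a (0.0979), mgarp (0.0629), LOC103397409 (0.0923) and elovl6 (0.0848) were not called, nor were the sex by tissue terms of LOC103386020 (0.0702) and kcne4 (0.13), and tshba was called (0.0144). Of 112 genes followed by name, 98 were called; 72 kept the call in every one of the 17 alternatives that tested them, 57 of these being tested in all 17, and no called gene turned direction. LOC103389827, not called, ranged from -0.089 to 0.22 without single libraries (below 0 at -0.014, -0.029 and -0.089 without female pool 1, male pool 2 and male pool 3) and was -0.062 without both libraries numbered 3; LOC103392947, not called, turned to 0.034 after quantile normalization; the cause was not tested. All p-values rest on the spread of 3 pools per sex, and genes near 1 FPKM rest on few counts.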
